A study of Mus musculus with 18 samples.

Results

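This report describes 38 genes of glucose uptake, glycolysis, lactate handling, pyruvate dehydrogenase control, oxygen sensing and the pentose phosphate pathway in regulatory T cells (Tregs) of mice with and without the chromatin remodeler CHD8. The members were chosen by name, with earlier results of these data known, so counts of members beside those of all genes are descriptive. Each member was read from the RNA-seq table as its level in Chd8-/- and in wild-type (WT) Tregs. All 38 were found among the 35865 uniquely named genes of the table. A gene was tested if it reached 1 TPM (a transcript level corrected for gene length and scaled to a fixed total per library) in at least 2 libraries, which 35 members and 15240 genes overall did. Hk3, Pfkfb4 and Pdk4 did not.

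The study removed Chd8 from Tregs of the mouse with a Cre recombinase that is fused to YFP and knocked into Foxp3, the X-linked gene of the Treg lineage factor. RNA was sequenced from YFP+ cells sorted out of splenic CD4+ T cells, from 2 WT and 2 Chd8-/- mice, 1 library per mouse. The labels give the genotype CHD8Flox/FloxFoxp3YFP-Cre for the Chd8-/- libraries and CHD8flox/floxFoxp3YFP-Cre/+ for the WT libraries, whereas the study describes its WT mice as Chd8+/+ littermates with the same Cre. The labels also name a Poly IC injection for every sample, WT included, which the methods of the study do not mention. Mice were sex-matched littermates several weeks old. The study reports that its Chd8-/- mice were small, had enlarged spleens and inflamed skin and lungs, and died within weeks of birth. Loss of CHD8 in the cell and inflammation of the animal therefore cannot be told apart in these libraries. ChIP-seq and ATAC-seq samples of the series were not analysed here. The Cre acts in Foxp3-expressing cells of the whole animal, and in a female with 1 copy of it X inactivation leaves some Tregs without it, which the sort for YFP removes. If the WT label held, the sorted YFP+ cells of the WT libraries would also carry floxed Chd8 and the Cre. The groups are taken here as the study names them, and the genotype of the libraries was not tested.

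Glycolysis splits glucose into pyruvate and yields ATP and NADH. Its lower part, from GAPDH to pyruvate kinase, is where the ATP is gained, and lactate dehydrogenase returns NADH to NAD+ so that the flow can continue. The pentose phosphate pathway branches off at glucose 6-phosphate and supplies NADPH and ribose. Activated effector T cells are known for high glycolysis, resting Tregs for leaning more on mitochondrial oxidation, and the transcription factor HIF-1 for raising many of the genes listed here when oxygen is low.

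Chd8 itself was listed at 24.7 and 27.6 TPM in the WT libraries and at 14.9 and 11.4 in the Chd8-/- libraries. Its transcript was lower in both Chd8-/- libraries without being lost (log2 fold change -0.95, SE 0.29, adjusted p = 0.455). Foxp3 was at 203 and 215 TPM in WT and at 232 and 205 in Chd8-/- cells, and Cd4 at 403 and 432 against 326 and 324, so all 4 libraries carried the defining Treg transcripts. The second Chd8-/- library stood apart by transcripts of other cells. The summed TPM of 10 myeloid markers was 351 and 411 in WT, 62.7 in the first and 1777 in the second Chd8-/- library. Lyz2 alone made up 1360 TPM of the last sum. The other markers were mixed in that library, with Fcer1g above WT (161.5 against 64.4 and 104.3 TPM) and Tyrobp below (128.4 against 135.2 and 184.5 TPM). S100a8 was listed at 0 in each WT library and at 5.3 and 16.5 TPM in the Chd8-/- libraries. The sums of the B cell markers (243, 185, 130 and 1008) and the erythroid markers (258, 260, 8.8 and 1558, in the same order) were also lowest in the first and highest in the second Chd8-/- library. Hbb-bs was listed at 0 in the first Chd8-/- library. Markers of CD8+ T and NK cells did not separate the libraries (87.4 and 57.8 against 96.1 and 71.0). The study describes male and female mice for each genotype in RNA-seq, but Xist, which is transcribed from an inactive X chromosome, was at 843 and 817 TPM in WT and at 702 and 500 TPM in Chd8-/- libraries, and the Y-linked genes Ddx3y, Eif2s3y, Kdm5d and Uty were listed at 0 in all 4. These genes were looked up after the data had been seen, and they matter here because 4 members (Pgk1, Pdk3, Pdha1 and G6pdx) are X-linked. Depth could not be read from TPM values.

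In Chd8-/- Tregs, 4 of 7 lower glycolytic genes (Gapdh, Pgk1, Pgam1 and Eno1) lay above WT in each library, the hexokinases and phosphofructokinases overlapped with WT, and transketolase lay below, while no member passed the test over all genes. Of all genes, 14.8% lay above WT without overlap and 27.8% below, and of those at 100 TPM or more 25.2% and 19.3%. Summed over the 38 members, WT libraries held 1995 and 2054 TPM and Chd8-/- libraries 2496 and 2602 TPM, a ratio of means of 1.26 (2025 ± 41.7 against 2549 ± 74.6, SD, n = 2 each). Pgk1, Gpi1 and Gapdh accounted for 64.9% of this net difference of 525 TPM, and with Pgam1 for 77.3%. Because bulk RNA was measured, a change in the number of cells of a type and a change of RNA per cell cannot be told apart.

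By limma with Benjamini-Hochberg adjustment over all genes tested, 0 of 35 members and 0.0% of all genes had an adjusted p under 0.05. At an unadjusted p under 0.05, Gpi1, Pgk1 and Pgam1 (3 of 35, 8.57%) were higher in Chd8-/- cells beside 3.9% of all genes, and 0 members were lower beside 6.3%. No member differed by a log2 fold change of 1 or more, which 5.12% of all genes did upwards and 11.6% downwards. In 12 members (34.3%) the lowest Chd8-/- value exceeded the highest WT value, which was so for 14.8% of all genes. In 2 members (5.71%), Eno3 and Tkt, the reverse held, as it did for 27.8% of all genes. The 12 were Slc2a1, Gpi1, Aldoa, Tpi1, Gapdh, Pgk1, Pgam1, Eno1, Ldha, Pdk3, Egln1 and G6pdx. Of the 31 tested members that are not X-linked, 9 lay higher and 2 lower without overlap, with a median log2 fold change of 0.15. The summed level of these 31 was 1569 and 1604 TPM in WT and 1859 and 2012 TPM in Chd8-/- libraries.

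The background depended on the level of a gene. Among genes with a mean of 100 TPM or more, 25.2% lay higher without overlap and 19.3% lower, and of the 8 members in that range 6 lay higher and 0 lower. From 20 to under 100 TPM the background was 16.3% higher and 27.6% lower, with 6 and 1 of 13 members. Under 20 TPM it was 12.3% and 29.3%, with 0 and 1 of 14 members. Pfkfb4, which was too scarce to be tested, also lay higher, which makes 13 members with no filter. The median log2 fold change was 0.15 over the members and -0.15 over all genes, with 22 members positive and 13 negative against 5873 and 9367 genes. Quantile normalization moved the median of all genes to 0.0016 and that of the members to 0.21. Without the first WT library, the median of the members turned to -0.04 and that of all genes to -0.196.

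**Figure D1:**
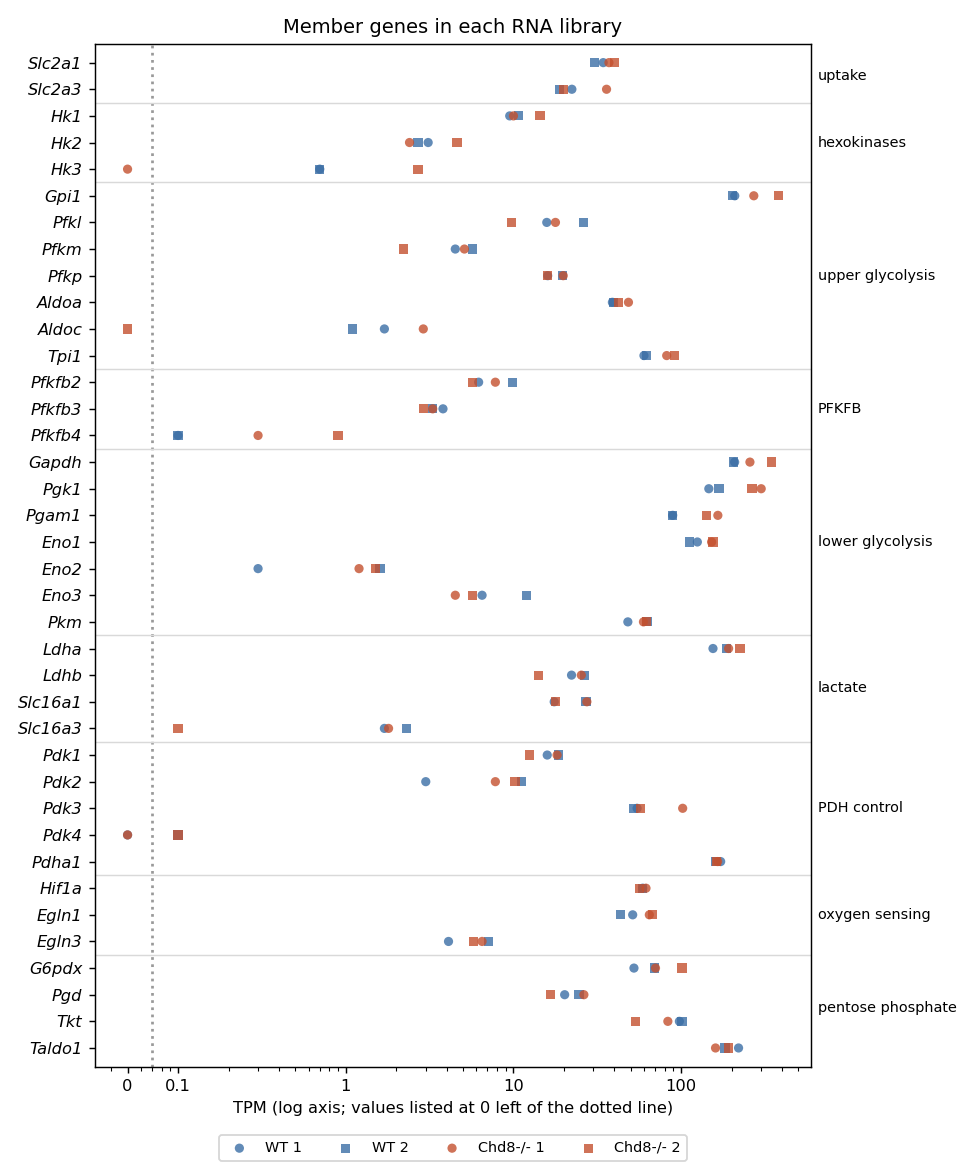
TPM of each member in each of the 4 RNA libraries on a log axis, ordered by role, with blue for WT, red for Chd8-/-, circles for the first and squares for the second library of a genotype. Pgk1 and Pgam1 show the red points clear of the blue, from 265 to 300 TPM against 146 to 168 TPM for Pgk1, while Hif1a and Pdha1 lie together in all 4 libraries.

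Of the lower glycolytic genes, Pgk1, phosphoglycerate kinase 1, the enzyme of the first ATP-forming step, showed the largest difference of any member. It stood at 146 and 168 TPM in WT, and Chd8-/- cells had 300 and 265 TPM. Both Chd8-/- values lay far above both WT values, by more than either genotype varied within itself. The log2 fold change was 0.84 (SE 0.18, 95% interval 0.35 to 1.33, unadjusted p = 0.00811, adjusted p = 0.403), and with any 1 of the 4 libraries left out it stayed between 0.74 and 0.94. Pgam1, phosphoglycerate mutase 1, which moves the phosphate group of the next intermediate, was at 89.0 and 88.7 TPM in WT and at 166 and 142 TPM in Chd8-/- cells. The WT libraries were nearly equal and the genotypes did not overlap (log2 fold change 0.78, SE 0.19, unadjusted p = 0.0119, adjusted p = 0.427, 0.67 to 0.89 with 1 library left out).

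Gapdh, which oxidises glyceraldehyde 3-phosphate just before the PGK1 step, was at 208 and 205 TPM in WT and at 257 and 347 TPM in Chd8-/- cells. The genotypes did not overlap, but the Chd8-/- libraries were far apart (log2 fold change 0.53, SE 0.21, unadjusted p = 0.0632, adjusted p = 0.51). Eno1, the main enolase of most tissues, was at 125 and 112 TPM against 152 and 155 TPM, again without overlap (log2 fold change 0.37, adjusted p = 0.557). The table also lists a near-identical copy, Eno1b, at 46.1 and 42.6 TPM in WT and at 40 and 40.6 in Chd8-/- libraries, so the split of reads between the copies is uncertain, and their sum was 171 and 154 against 192 and 196 TPM. Eno2, the neuronal enolase, was near the limit of the table at 0.3 and 1.6 against 1.2 and 1.5 TPM. Eno3, the muscle enolase, went the other way, at 6.5 and 11.9 TPM in WT and at 4.5 and 5.7 TPM in Chd8-/- cells (log2 fold change -0.70, SE 0.44, adjusted p = 0.641). Pkm, the pyruvate kinase that ends the pathway, was at 48.1 and 62.5 TPM against 59.6 and 62.3, so both Chd8-/- values fell within the WT pair (log2 fold change 0.15, adjusted p = 0.848). The 7 genes together summed to 623 and 650 TPM in WT and to 940 and 978 TPM in Chd8-/- cells, the widest gap of any role.

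The sequences before the starts of 5 members are shown because they place the 3 genes with the lowest p, the lactate dehydrogenase gene and a member that stood lower side by side. They are the 250 bases before an annotated start in RefSeq on GRCm38.p6, written 5′ to 3′ on the strand of the gene, with each match to ACGTG or GCGTG, or to their reverse complements CACGT and CACGC, in capitals. These letters are the core of the hypoxia response element that HIF binds. Both hold a CG, and CACGTG, which other factors bind as an E-box, counts as 2 overlapping matches.
Pgk1, chrX:106186850-106187099, + strand: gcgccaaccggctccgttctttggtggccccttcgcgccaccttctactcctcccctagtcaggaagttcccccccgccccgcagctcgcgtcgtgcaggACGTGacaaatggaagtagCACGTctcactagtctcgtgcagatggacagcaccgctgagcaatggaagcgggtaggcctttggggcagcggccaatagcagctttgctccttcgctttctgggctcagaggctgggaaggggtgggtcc
Pgam1, chr19:41911621-41911870, + strand: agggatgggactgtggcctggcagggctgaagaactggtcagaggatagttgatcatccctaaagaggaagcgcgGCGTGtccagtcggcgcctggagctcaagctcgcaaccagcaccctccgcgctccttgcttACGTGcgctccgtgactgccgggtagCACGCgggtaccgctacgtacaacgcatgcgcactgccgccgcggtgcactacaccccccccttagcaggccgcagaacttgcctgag
Gpi1, chr7:34230337-34230586, - strand: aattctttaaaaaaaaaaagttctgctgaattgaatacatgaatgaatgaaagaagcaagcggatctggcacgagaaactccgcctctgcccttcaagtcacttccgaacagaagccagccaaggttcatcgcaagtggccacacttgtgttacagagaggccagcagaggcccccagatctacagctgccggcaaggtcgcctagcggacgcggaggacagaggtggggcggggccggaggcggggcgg
Ldha, chr7:46845554-46845803, + strand: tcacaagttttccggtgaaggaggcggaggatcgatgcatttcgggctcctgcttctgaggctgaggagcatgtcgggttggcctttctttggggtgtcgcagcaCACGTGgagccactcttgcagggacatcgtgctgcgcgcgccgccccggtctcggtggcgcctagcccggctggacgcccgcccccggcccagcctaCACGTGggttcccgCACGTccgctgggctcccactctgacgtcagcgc
Tkt, chr14:30548881-30549130, + strand: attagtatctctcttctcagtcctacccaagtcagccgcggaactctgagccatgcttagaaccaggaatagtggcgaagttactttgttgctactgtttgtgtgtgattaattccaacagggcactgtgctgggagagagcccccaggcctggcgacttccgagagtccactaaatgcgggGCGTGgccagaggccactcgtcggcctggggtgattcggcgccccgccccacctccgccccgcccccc

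Pgk1 held 2 matches, starting 150 and 131 bases before its start, in opposite orientation. Pgam1 held 3, at 175, 114 and 88 bases. Ldha held 5 that come from a pair of CACGTG palindromes and a further CACGT. Tkt held 1, at 68 bases, and Gpi1 none in this window. Of the 37 members with an entry, 34 (91.9%) had a match in at least 1 window, against 11226 of 27025 genes (41.5%), and counted by window it was 44 of 54 (81.5%) against 12628 of 32536 (38.8%). The member windows were also richer in CG, with a median of 14 CG dinucleotides against 6 in all windows. A match is a stretch of letters and not a measured site, and genes that stood higher (Pgk1), lower (Tkt) or level (Hif1a, 3 matches) in Chd8-/- cells all had 1 or more.

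**Figure D2:**
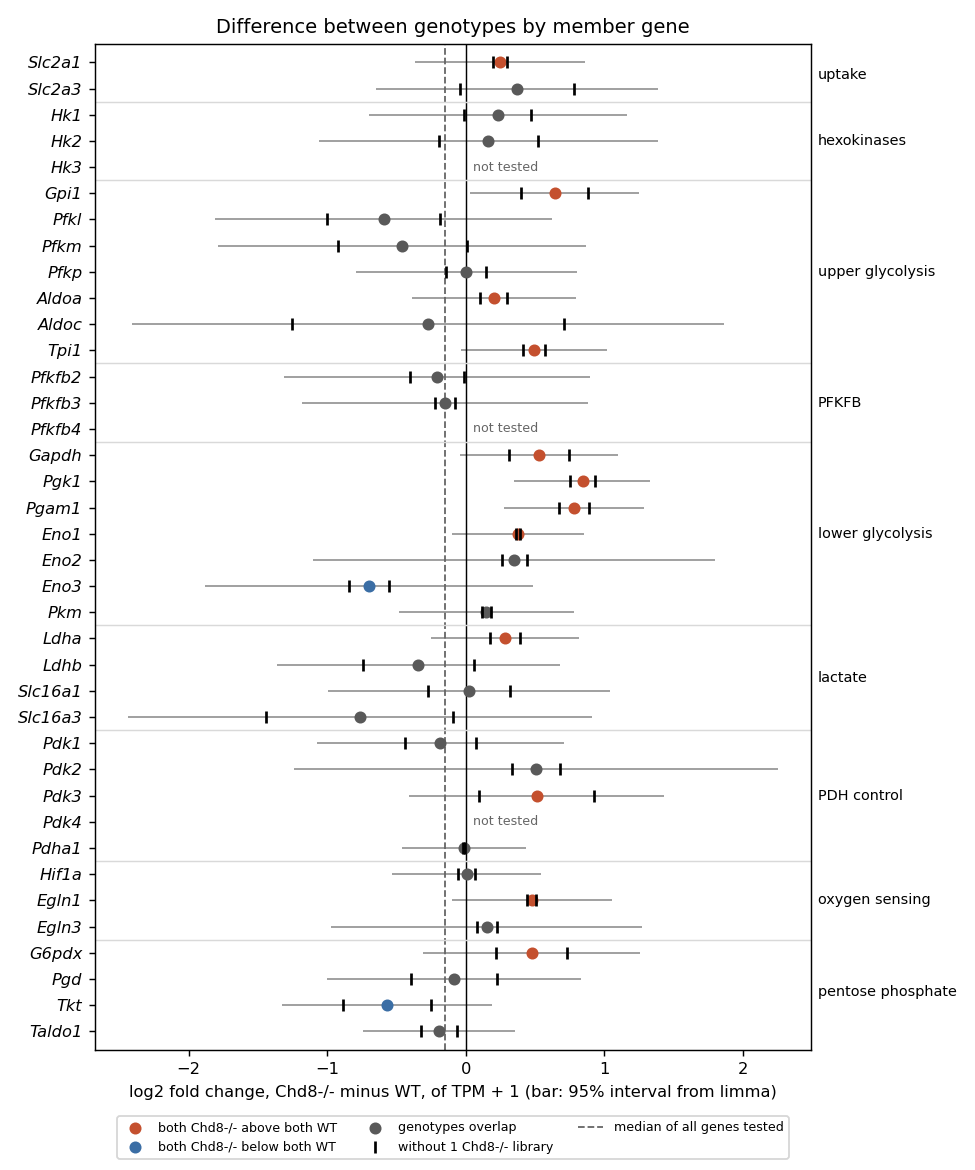
Log2 fold change (Chd8-/- minus WT, of TPM + 1) of each tested member with its 95% interval, coloured by whether the 2 genotypes overlap, with black ticks for the value without either Chd8-/- library and a dashed line at the median of all genes (-0.15). Only the intervals of Gpi1, Pgk1 and Pgam1 lie clear of 0, and the ticks of Pdk3 run from 0.10 to 0.93.

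Upper glycolysis prepares glucose for splitting, and its genes did not move as one. Gpi1, glucose-6-phosphate isomerase, was at 209 and 202 TPM in WT and at 271 and 379 TPM in Chd8-/- libraries. Both Chd8-/- values were above WT, the second by much more (log2 fold change 0.64, SE 0.23, 95% interval 0.03 to 1.25, unadjusted p = 0.0426, adjusted p = 0.479), and the value was 0.40 without the second and 0.88 without the first Chd8-/- library. Tpi1, triosephosphate isomerase, which interconverts the 3-carbon products of the split sugar, was at 60.0 and 62.4 TPM against 82.0 and 91.4 TPM (log2 fold change 0.49, SE 0.19, unadjusted p = 0.0597, adjusted p = 0.505). Aldoa, the aldolase that makes the split, was at 38.9 and 39.6 against 48.5 and 42.3 TPM (log2 fold change 0.20, adjusted p = 0.78). These 3 genes did not overlap between the genotypes.

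The phosphofructokinase genes, which encode the subunits of the committed step of glycolysis, showed no such shift. Pfkl was at 15.8 and 26.2 TPM in WT and at 17.8 and 9.7 in Chd8-/- cells (log2 fold change -0.59, adjusted p = 0.69). Pfkm was at 4.5 and 5.7 against 5.1 and 2.2 TPM, and Pfkp at 16.0 and 19.7 against 19.8 and 16.0 TPM, with a log2 fold change of 0.0035. All 3 overlapped between genotypes, and Pfkl and Pfkm were lowest in the second Chd8-/- library. Aldoc, a brain aldolase, was scarce at 1.7 and 1.1 against 2.9 and 0 TPM, and its value of -0.27 turned to 0.04 under quantile normalization.

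PFKFB enzymes set the level of fructose 2,6-bisphosphate, the activator of phosphofructokinase. Pfkfb2 was at 6.2 and 9.9 TPM in WT and at 7.8 and 5.7 in Chd8-/- cells, and Pfkfb3 at 3.8 and 3.3 against 3.3 and 2.9 TPM. Their log2 fold changes of -0.21 and -0.15 turned to 0.04 and 0.15 under quantile normalization. Pfkfb4, too scarce to be tested, read 0.1 TPM in each WT library, then 0.3 and 0.9 TPM in Chd8-/- ones.

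At the entry of the pathway, Slc2a1, the broadly expressed glucose transporter GLUT1, was at 34.3 and 30.4 TPM in WT and at 37.1 and 40 TPM in Chd8-/- cells, without overlap (log2 fold change 0.25, SE 0.23, adjusted p = 0.741). Slc2a3, the high-affinity transporter GLUT3, was at 22.3 and 18.8 against 35.9 and 19.9 TPM, so that its difference came from the first Chd8-/- library and was -0.04 without it. Hexokinases trap glucose by phosphorylation. Hk1 was at 9.5 and 10.7 against 10.0 and 14.4 TPM, and Hk2, the isoform typical of activated cells, at 3.1 and 2.7 against 2.4 and 4.6 TPM, both overlapping (adjusted p = 0.84 and 0.919). Hk3, a hexokinase known from myeloid cells, read 0.7 TPM in each WT library, was listed at 0 in the first Chd8-/- library and reached 2.7 TPM in the second, the same order as the myeloid marker sum (62.7 and 1777 TPM). Whether those cells supplied it was not tested.

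Of the 4 lactate genes, Ldha lay higher without overlap and the others overlapped. Ldha, the subunit that favours turning pyruvate into lactate, was at 155 and 187 TPM in WT and at 192 and 224 TPM in Chd8-/- cells. The genotypes did not overlap, but the highest WT and lowest Chd8-/- values nearly met (log2 fold change 0.28, SE 0.20, adjusted p = 0.672). Ldhb, the subunit that favours the reverse reaction, was at 22.2 and 26.6 against 25.4 and 14.1 TPM (log2 fold change -0.34, adjusted p = 0.785). Slc16a1, the lactate transporter MCT1, was at 17.5 and 27.1 against 27.4 and 17.9 TPM, and spread as much within as between genotypes. Slc16a3, the exporter MCT4 of glycolytic cells, was scarce, at 1.7 and 2.3 against 1.8 and 0.1 TPM (log2 fold change -0.77, SE 0.62).

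Pyruvate dehydrogenase carries pyruvate into the mitochondrial cycle, and PDH kinases switch it off. Pdha1, the catalytic subunit gene, was level at 172 and 159 TPM in WT and 165 and 163 TPM in Chd8-/- cells (log2 fold change -0.01, 95% interval -0.46 to 0.44). Pdk3 was the most abundant kinase, at 54.6 and 52.0 against 102 and 57.1 TPM. The genotypes did not overlap, yet only the first Chd8-/- library was far from WT, and the log2 fold change of 0.51 (SE 0.34, adjusted p = 0.656) became 0.10 without it. Pdk1, the kinase best known as a HIF-1 target, was at 15.9 and 18.6 against 18.2 and 12.4 TPM (log2 fold change -0.18), Pdk2 at 3.0 and 11.2 against 7.8 and 10.2 TPM, and Pdk4 at 0.1 TPM or listed at 0 in every library.

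Of the oxygen sensing genes, Hif1a, which encodes the regulated HIF-1 subunit, was at 59.0 and 58.6 TPM in WT and at 61.7 and 56.6 TPM in Chd8-/- cells, with a log2 fold change of 0.0071 (95% interval -0.53 to 0.54). HIF-1 is mainly controlled at the protein level, which RNA does not show. Egln1, the prolyl hydroxylase PHD2 that marks HIF for breakdown, was at 51.4 and 43.3 against 64.6 and 67.5 TPM, without overlap (log2 fold change 0.48, SE 0.21, unadjusted p = 0.0853, adjusted p = 0.549). Egln3, PHD3, was at 4.1 and 7.1 against 6.5 and 5.8 TPM. Of the 17 members listed as well known HIF targets, 16 were tested, 12 were positive and 4 negative, 8 lay higher without overlap and 0 lower, beside 14.8% and 27.8% of all genes, or 25.2% and 19.3% of those at 100 TPM or more, and their median log2 fold change was 0.23. These are counts within the members and were not tested apart from them.

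Of the 4 pentose phosphate genes, 1 lay higher (G6pdx) and 1 lower (Tkt) without overlap, beside 14.8% and 27.8% of all genes, and Pgd and Taldo1 overlapped. G6pdx, the enzyme of the first, NADPH-forming step, was at 52.3 and 69.7 TPM in WT and at 70.3 and 101 TPM in Chd8-/- cells, where the second WT and first Chd8-/- libraries almost coincided (log2 fold change 0.48, SE 0.29, adjusted p = 0.634). Pgd, the enzyme of the second NADPH-forming step, was at 20.2 and 24.6 against 26.3 and 16.7 TPM, and its value of -0.08 turned to 0.08 under quantile normalization. Tkt, the transketolase of the non-oxidative arm, was at 97.6 and 101 TPM in WT and at 83.3 and 53.4 TPM in Chd8-/- cells. Both Chd8-/- values lay below WT, the second much further (log2 fold change -0.57, SE 0.28, unadjusted p = 0.109, adjusted p = 0.573, -0.25 without the second Chd8-/- library). Taldo1, the transaldolase beside it, was at 220 and 183 against 160 and 192 TPM (log2 fold change -0.19, adjusted p = 0.776). The summed pentose phosphate level was 390 and 378 TPM in WT and 340 and 363 TPM in Chd8-/- cells.

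**Figure D3:**
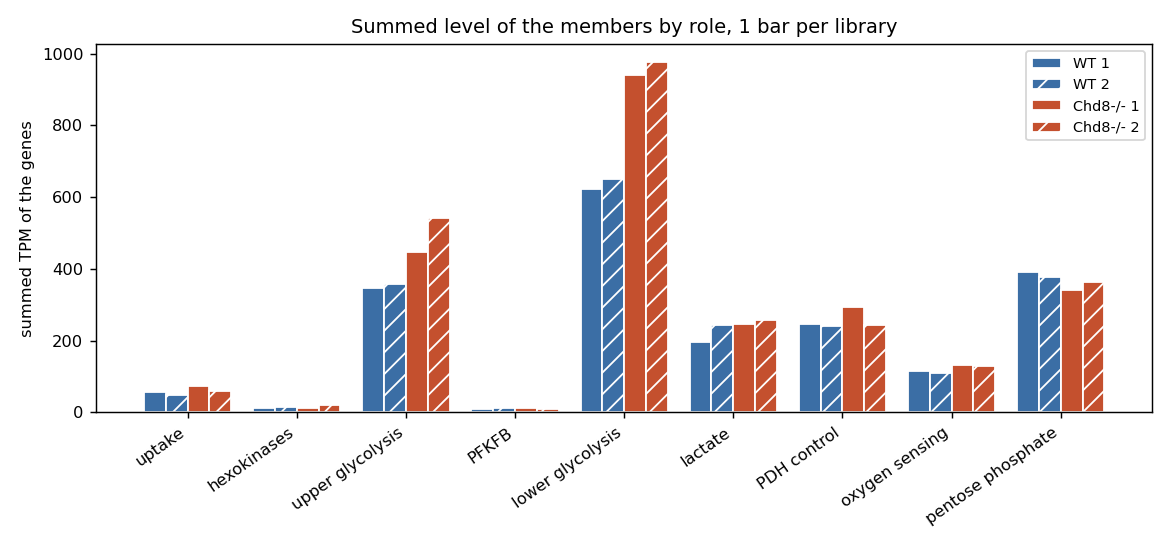
Summed TPM of the members of each role, 1 bar per library (blue WT, red Chd8-/-, hatched for the second library of a genotype). Lower glycolysis shows the widest gap, 623 and 650 against 940 and 978 TPM, and the pentose phosphate genes the opposite order, 390 and 378 against 340 and 363 TPM.

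Ratios within a library do not depend on its scaling. Over the 9 enzyme families, 14 of 24 paralog shares overlapped between the genotypes, among them those of both glucose transporters, all 3 hexokinases and Pdk3, and 10 did not. The examples that follow are from the 10 and were picked after their values had been seen. The share of Pdk1 in the summed PDH kinases was 21.6% and 22.7% in WT and 14.2% and 15.5% in Chd8-/- libraries. Ldha made up 87.5% of the lactate dehydrogenase transcripts in each WT library and 88.3% and 94.1% in Chd8-/- ones, and the difference in mean share of 3.69 percentage points was 0.803 without the second Chd8-/- library. Eno3 made up 4.94% and 9.5% of the 3 enolases against 2.86% and 3.52%, and Pfkp 44.1% and 38.2% of the phosphofructokinases against 46.4% and 57.3%. For each of these 4 shares the exact permutation test gave p = 0.33 (two-sided), the smallest that 2 against 2 libraries allow. The ratio of Tkt to Gpi1 was 0.468 and 0.501 in WT and 0.307 and 0.141 in Chd8-/- cells, and that of Taldo1 to Gpi1 was 1.05 and 0.904 against 0.591 and 0.506. These pairs were picked in the same way.

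**Figure D4:**
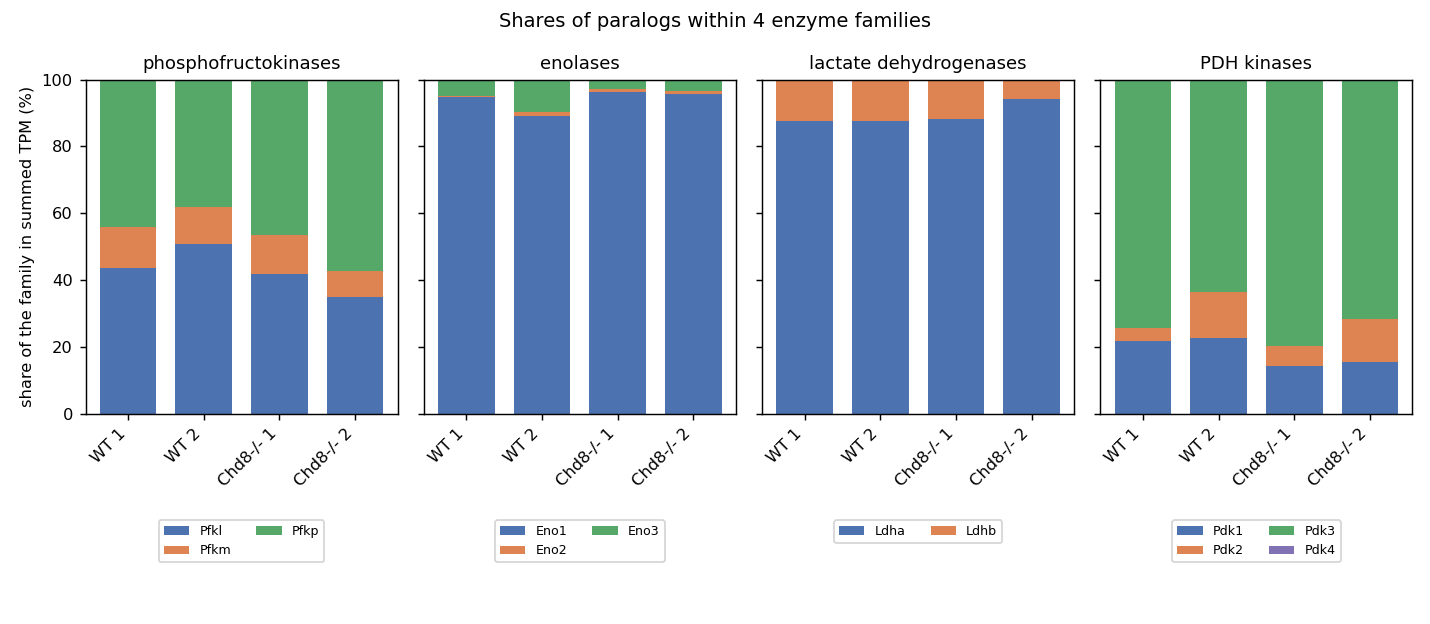
Share of each paralog in the summed TPM of its enzyme family, in percent, as stacked bars per library. The Pdk1 part of the PDH kinases is 21.6% and 22.7% in WT and 14.2% and 15.5% in Chd8-/- libraries, and the Ldhb part of the lactate dehydrogenases is 12.5% in each WT library and 11.7% and 5.92% in the Chd8-/- libraries.

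The Chd8-/- libraries differed from each other more than the WT libraries did. Over the members, the absolute log2 difference between the pair of a genotype had a median of 0.348 for Chd8-/- and 0.242 for WT, and over all genes 0.521 and 0.322. In 16 tested members both Chd8-/- libraries lay above the WT mean, in 8 both lay below, and in 11 they fell on opposite sides. Of those 11, the first library was the higher in 9. The second library was the one with the high myeloid (largely Lyz2, at 1360 TPM), B cell and erythroid marker sums, and the part of those transcripts in the members' values was not tested. Of the 12 members that lay higher than WT without overlap, Pgk1, Pgam1, Aldoa and Pdk3 were higher in the first Chd8-/- library. Slc2a1, Gpi1, Tpi1, Gapdh, Eno1, Ldha, Egln1 and G6pdx were higher in the second.

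Negative values were the more common among the other genes of these pathways, as they were over all genes (9367 of 15240). Of 23 further glycolysis genes, mostly isoforms of other tissues, 14 were tested, and 4 were positive and 10 negative (median log2 fold change -0.37, and -0.01 under quantile normalization). Without overlap, 1 lay higher and 4 lower, beside 14.8% and 27.8% of all genes. Gpd1, which passes glycolytic carbon to glycerol 3-phosphate, was at 4.4 and 5.4 TPM in WT and at 0.1 and 0 in Chd8-/- cells (log2 fold change -2.49, SE 0.42, unadjusted p = 0.00304, adjusted p = 0.392). Pgam2, the muscle phosphoglycerate mutase, was at 10.2 and 8.1 against 16.4 and 37.7 TPM (log2 fold change 1.36, adjusted p = 0.481), and Slc2a8, an intracellular glucose transporter, at 5.5 and 4.5 against 2.7 and 0 TPM. Both Gpd1 and Slc2a8 were low or at 0 in both Chd8-/- libraries. Of the 6 further pentose phosphate genes, 5 were negative (median -0.27), with Prps1, which makes PRPP from ribose 5-phosphate, at 64.2 and 85.3 against 62.7 and 28.9 TPM. Of 9 tested genes of gluconeogenesis and glycogen, 5 were negative (median -0.23, and 0.03 under quantile normalization), and the glycogen synthase Gys1 was at 17.2 and 10.9 against 8.1 and 5.5 TPM. Of 8 further genes around pyruvate dehydrogenase, 6 were negative (median -0.08). None of these genes passed the adjusted test.

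Among 8 regulators of the HIF pathway, Epas1, which encodes HIF-2α, was at 2.0 and 2.1 TPM in WT and at 17.4 and 62.5 TPM in Chd8-/- cells. Both Chd8-/- libraries were well above WT, and they differed from each other several-fold (log2 fold change 3.49, SE 0.68, unadjusted p = 0.00558, adjusted p = 0.403). Hif3a was at 2.0 and 1.5 against 15.3 and 4.1 TPM (log2 fold change 1.74, adjusted p = 0.503). Vhl, the ubiquitin ligase subunit that removes hydroxylated HIF, was at 35.2 and 28.3 against 27.3 and 13.7 TPM. The hydroxylase gene Egln2 was at 29.2 and 38.5 against 25.0 and 24.5 TPM. Both were lower without overlap, as was Arnt (14.9 and 11.8 against 11.1 and 8.7 TPM). Of the 8 regulators, 5 were positive and 3 negative. Without overlap, 3 lay higher and 3 lower, beside 14.8% and 27.8% of all genes. Of 12 tested HIF targets outside metabolism of glucose, 7 were positive and 5 negative (median 0.18). Without overlap, 4 lay higher and 1 lower, again beside 14.8% and 27.8% of all genes. The 1 that lay lower was Kdm3a, at 35.1 and 33.3 against 26.3 and 20.1 TPM. Bhlhe40, a transcriptional repressor induced by T cell activation as well as by hypoxia, was at 47.0 and 52.5 TPM against 155 and 131 TPM (log2 fold change 1.50, SE 0.21, unadjusted p = 0.00137, adjusted p = 0.374). Ero1l, an oxidase of the endoplasmic reticulum, was at 65.8 and 59.0 against 119 and 131 TPM (log2 fold change 1.00, adjusted p = 0.403).

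Activation and cell division genes were counted beside the members, none of them passed the adjusted test, and their part in the members' values was not tested. Of 6 activation markers, 5 were positive and 4 lay higher without overlap (14.8% of all genes did), the median log2 fold change being 0.54, and they had a summed level of 617 and 639 TPM in WT and 1039 and 906 TPM in Chd8-/- cells. Icos, a costimulatory receptor, was at 110 and 110 against 254 and 213 TPM (log2 fold change 1.07, adjusted p = 0.402), and Tnfrsf4, OX40, at 284 and 253 against 474 and 473 TPM (adjusted p = 0.403). Tnfrsf9, 4-1BB, was at 43.2 and 42.8 against 84.6 and 61.4 TPM, and Pdcd1, the inhibitory receptor PD-1, went the other way at 90.6 and 144 against 93.7 and 84.5 TPM, with overlap (log2 fold change -0.36, adjusted p = 0.707). Of 10 proliferation genes, 7 were positive and 5 lay higher without overlap, again beside 14.8% of all genes (median 0.40), with sums of 781 and 837 against 1008 and 1140 TPM. Of 10 genes often used as references, 6 were positive and 4 negative (median 0.11).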

How the data were processed

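RNA-seq of sorted YFP+ splenic Tregs (2 WT and 2 Chd8-/- mice) was analysed from the deposited TPM table. Per the submitters' processing notes and the methods, the authors trimmed reads with Trim Galore 0.4.2 and cutadapt 1.9.1, aligned them to mm10 with STAR 2.6.1e, removed duplicates, counted RefSeq genes with featureCounts 1.6.2 and gave TPM in steps of 0.1. The handling of reads that map to several places is not given in the sources used here, and the library kit is described in more than 1 way. TPM keep no depth, so precision per library is unknown. Names listed more than once were dropped. Genes with TPM of at least 1 in 2 libraries were tested on log2(TPM + 1) with limma 3.58.1 in R 4.3.3 (trended eBayes, two-sided, Benjamini-Hochberg), a scale that understates changes of low genes. The script was tested on simulated data. Each member, and up to 4 genes of each other list with the largest absolute fold change, plus Foxp3, Cd4 and Chd8, were named. A few further genes were added after the values had been seen. The members and lists were chosen with earlier results of these data known. Quantile normalization, other pseudocounts and filters, a replicate block and leaving out each library were tried as alternatives. Gene and promoter coordinates are RefSeq on GRCm38.p6. The ATAC-seq and ChIP-seq tables use mm39, so members' promoters were not analysed in them here.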

Additional observations from a re-analysis of the deposited data

How the results depend on the processing

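No member passed an adjusted p of 0.05 under any of the 11 alternatives run, with the smallest adjusted p of any member between 0.204 and 0.971. Over the alternatives, 17 members kept their sign (12 higher, 5 lower) and 18 changed it at least once. Under quantile normalization Aldoc turned to 0.0428, Pfkfb2 to 0.0434, Pfkfb3 to 0.15 and Pgd to 0.0848, and 1 member instead of 2 lay lower without overlap. It also evened the directions over all genes, to 3196 higher and 3242 lower without overlap (2261 and 4233 as deposited), to 1146 and 1231 past a log2 fold change of 1 (781 and 1768), and to 786 and 790 at an unadjusted p under 0.05 (595 and 960). With no filter, 415 genes passed the adjusted test, 921 higher and 1523 lower genes and 5 members passed the unadjusted one, and the cause was not tested. With a mean of at least 5 TPM, 2 genes passed the adjusted test and 1149 lay past -1. With a pseudocount of 5 TPM, 362 and 690 genes lay past 1 and -1, and with 0.1 TPM, 2 members lay past -1.

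The replicate numbers did not pair the libraries (correlation of replicate differences -0.0117), and with the replicate block 2 members had an unadjusted p under 0.05, the smallest adjusted p being 0.552.

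Leaving out 1 library at a time assumes that the lone library varies like the other genotype. The log2 fold change then crossed 0 in Slc2a3 (-0.0394 to 0.781), Hk1 (-0.0109 to 0.474), Hk2 (-0.20 to 0.52), Pfkm (-0.92 to 0.0070), Pfkp (-0.14 to 0.15), Aldoc (-1.25 to 0.71), Pfkfb2 (-0.505 to 0.0928), Eno2 (-0.15 to 0.85), Pkm (-0.036 to 0.335), Ldhb (-0.745 to 0.0611), Slc16a1 (-0.28 to 0.33), Pdk1 (-0.442 to 0.0772), Pdk2 (-0.30 to 1.31), Pdha1 (-0.0675 to 0.0416), Hif1a (-0.0541 to 0.0683), Egln3 (-0.18 to 0.49) and Pgd (-0.40 to 0.23). Members with an unadjusted p under 0.05 ranged from 0 (without the first WT library) to 5 higher and from 0 to 2 lower (both without the first Chd8-/- library). From 0 to 1 lay past 1 and 0 to 2 past -1, and 4 to 12 lay lower without overlap, as fewer libraries leave less to overlap. Over all genes, 220 to 919 were higher and 332 to 2262 lower at an unadjusted p under 0.05, 989 to 1371 and 1446 to 3107 lay past 1 and -1, and 3359 to 4948 and 5794 to 8032 did not overlap. The planned analyses of member promoters in ATAC-seq and ChIP-seq were not run.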
